A study of Mus musculus with 10 samples.

Results

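The genes of the interferon gamma pathway that lie upstream of Ciita were examined in osteocyte RNA-seq from 10 mice. They are the ligand Ifng, the receptor chains Ifngr1 and Ifngr2, the kinases Jak1 and Jak2, the transcription factors Irf1, Irf2 and Usf1, and the feedback inhibitor Socs1. They were chosen by gene name and make up 9 of the 22548 genes in the table. All 9 passed the filter on low counts and were among the 16186 genes tested. The mice were male C57BL/6 mice, labelled as 8 weeks old, and the labels name no transgene or deletion in either group. In the MM group (mice 6 to 10), Vk12598 cells, a mouse myeloma line, had been injected into the femur, and the femurs were examined at week 6. The No MM group (mice 1 to 5) had received no myeloma cells. Osteocytes are the cells embedded in bone matrix. They were released from marrow-depleted bone pieces by repeated collagenase and EDTA digestion, and no sort is described, so other cells attached to bone can be present in every library. Each mouse gave 1 library, and p-values measure the spread between these mice. The study asks how osteocytes differ in the presence of myeloma, with attention to Ciita.

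Interferon gamma is secreted mainly by T and NK cells and binds a receptor built from Ifngr1, the ligand-binding chain, and Ifngr2, the chain needed for signaling. Jak1 is attached to Ifngr1 and Jak2 to Ifngr2, and together they start the signal that reaches GAS elements in DNA and switches on Irf1. At the interferon-responsive promoter of Ciita, the master regulator of MHC class II genes, Irf1 and Usf1 act together, while Irf2 binds the same kind of site as Irf1 and Socs1 inhibits the kinases.

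Between 31099174 and 39466332 reads were counted per library, and 3 counts corresponded to 0.0709 to 0.114 CPM (counts scaled to library size by TMM). The libraries No MM 3 and No MM 4 stood apart from the other 8. Immunoglobulin genes (316 in the table) took 26.6% and 29.0% of their counts, against 0.637% to 3.86% in the others. Summed plasma cell markers (7 genes) reached 3918 and 3763 CPM there, against 340 to 647 CPM elsewhere. Of these 7, 6 were higher in both than in any of the other 8 libraries, beside 3890 of the 16186 tested genes. Mzb1 was the exception, at 62.9 and 65.5 CPM there, below No MM 1 (87.6 CPM) and No MM 2 (70.4 CPM). Summed osteocyte markers (10 genes, none at 0 in any library) were 1658 and 1038 CPM there, against 6449 to 21616 CPM in the others. Of these 10, 7 were lower in both than in any of the other 8 libraries, beside 20.7% of all tested genes. Sost was not among them, at 157.6 and 109.6 CPM there and 68.3 to 994.9 CPM in the others. Fold changes of the pathway genes are given with and without these libraries. In such bulk libraries, fewer cells of a type and less RNA per cell cannot be told apart.

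Promoter sequences are shown for Irf1, Irf2 and Socs1, whose windows hold letter matches to response elements of the pathway. The results below turn on Irf1 and Socs1. The Ifng window, which also holds a match, is not shown. The windows run from 250 bases before to 50 bases after the gene start and come from RefSeq (GRCm38.p6), where all 9 genes were matched. The motifs searched on both strands were the interferon gamma activated site, or GAS (TTCNNNGAA), the Irf-binding ISRE (GAAANNGAAA) and the Usf-binding E-box (CACGTG). Capitals mark the matches in the windows at chr11:53769764-53770063 (Irf1, plus strand), chr8:46739495-46739794 (Irf2, plus strand) and chr16:10785487-10785786 (Socs1, minus strand).
Irf1: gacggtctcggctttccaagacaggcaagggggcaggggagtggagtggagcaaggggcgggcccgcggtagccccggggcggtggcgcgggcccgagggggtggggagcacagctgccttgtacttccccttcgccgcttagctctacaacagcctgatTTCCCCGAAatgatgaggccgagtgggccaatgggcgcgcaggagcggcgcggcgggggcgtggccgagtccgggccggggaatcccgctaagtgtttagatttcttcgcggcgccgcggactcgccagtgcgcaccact
Irf2: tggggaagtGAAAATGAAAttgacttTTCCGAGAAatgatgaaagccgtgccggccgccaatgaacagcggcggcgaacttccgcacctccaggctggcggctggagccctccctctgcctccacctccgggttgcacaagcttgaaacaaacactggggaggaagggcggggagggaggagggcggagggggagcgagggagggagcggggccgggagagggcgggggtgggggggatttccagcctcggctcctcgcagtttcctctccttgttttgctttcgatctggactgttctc
Socs1: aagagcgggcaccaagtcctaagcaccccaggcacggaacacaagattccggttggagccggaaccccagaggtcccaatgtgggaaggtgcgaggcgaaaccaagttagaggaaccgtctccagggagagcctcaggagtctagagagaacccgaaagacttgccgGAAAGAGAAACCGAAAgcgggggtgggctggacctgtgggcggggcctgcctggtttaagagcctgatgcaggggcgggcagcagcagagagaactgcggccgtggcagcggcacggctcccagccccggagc

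The Irf1 window shown held 1 GAS, TTCCCCGAA, whose first base lies 90 bases before the start. The Irf2 window held 1 ISRE and 1 GAS, with first bases 241 and 224 bases before the start. The Socs1 window held 2 overlapping ISRE matches, with first bases 83 and 77 bases before the start, and no GAS in these letters. The Ifng window held 1 GAS 249 bases before the start, and the windows of the other 5 genes held neither motif, nor did a further Irf1 window at another start. None of the 9 genes had an E-box in its window. Over all 32851 windows of this length, 8.30% held a GAS, 3.44% an ISRE and 7.15% an E-box. A match describes letters in these windows and is not a measured binding site.

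None of the 9 genes differed between MM and No MM beyond the spread between mice. By edgeR's quasi-likelihood test with Benjamini-Hochberg adjustment over all tested genes, 0 of the 9 passed an adjusted p of 0.05, and neither did any of the 16186 genes (0% called). At an unadjusted p under 0.05, 0 of the 9 were higher and 0 were lower, where 3.81% of all tested genes were higher and 10.3% lower in MM. DESeq2 gave 8 of them an adjusted p (all but Ifng) and called 0, where it called 1.27% of the 14868 genes to which it gave an adjusted p. In none of the 9 did the groups fail to overlap, which was the case for 1.41% of tested genes. The fitted log2 fold change was positive for 6 genes and negative for 3, where it was positive for 47.3% of all tested genes. Its median was 0.22, beside -0.03 over all tested genes. Without No MM 3 and No MM 4, 0 of the 9 passed an unadjusted p of 0.05 in either direction, where 2.51% of genes were higher and 3.37% lower. That median was then 0.11, beside -0.02 over all tested genes.

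**Figure D1:**
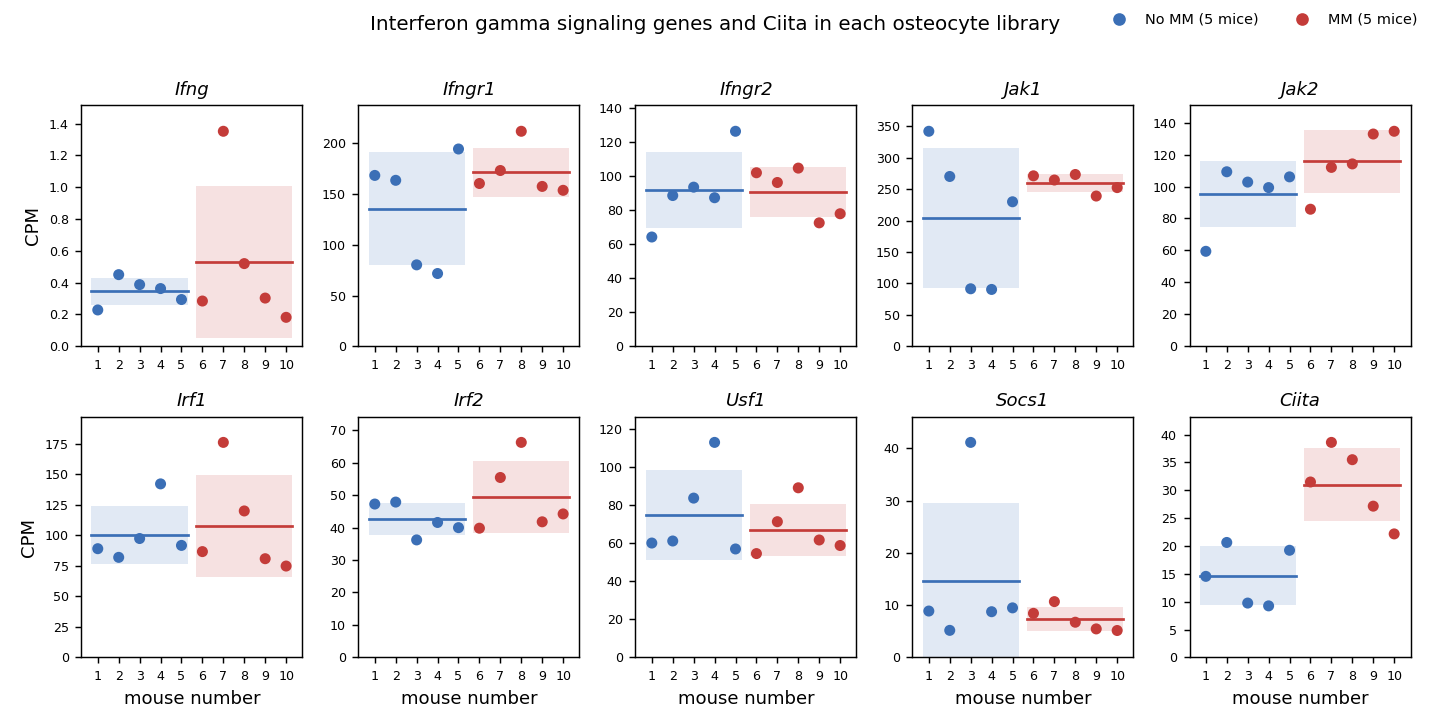
Each panel plots CPM (linear axis from 0) in 1 library per mouse, with No MM mice 1 to 5 in blue and MM mice 6 to 10 in red; lines are group means and bands are ± 1 SD (n = 5), cut at 0 for Socs1. The groups overlap for each of the 9 pathway genes, and the highest points of Ifng (1.35 CPM in MM 7) and Socs1 (41.1 CPM in No MM 3) are single libraries, whereas every MM value of Ciita lies above every No MM value.

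Ifng, the ligand (chr10:118441047-118445892, plus strand, GRCm38), was the least abundant of the 9. It had 6, 16, 12, 10 and 12 counts in No MM 1 to 5 and 11, 50, 22, 11 and 7 counts in MM 6 to 10. This corresponded to 0.229, 0.450, 0.388, 0.363 and 0.294 CPM in No MM and to 0.285, 1.35, 0.520, 0.303 and 0.182 CPM in MM. MM 7 was the highest of all 10 libraries, while MM 10 was the lowest, so that the MM range enclosed the No MM range. The means were 0.345 ± 0.0858 CPM in No MM and 0.528 ± 0.476 CPM in MM (SD, n = 5 each). The log2 fold change was 0.61 (SE 0.530), with a 95% interval of 0.678- to 3.41-fold and an edgeR adjusted p of 0.612. The exact permutation test, two-sided, on the difference of mean log2 CPM gave p = 0.683. Without MM 7, the log2 fold change was -0.09 (edgeR adjusted p = 0.947), and without No MM 3 and No MM 4 it was 0.67 (SE 0.676, edgeR adjusted p = 0.727). Summed markers of T and NK cells (16 genes, none at 0 in any library) ranged from 73.2 to 217.5 CPM in No MM and from 141.1 to 247.9 CPM in MM, with the highest sum in MM 7. Their part in the Ifng value was not tested. Ifng overlaps Gm49751 on the same strand in GENCODE M21, so their shared reads cannot be told apart.

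Ifngr1 (chr10:19591949-19610229, plus strand), the chain that binds the ligand, had 168.4, 163.6, 80.3, 71.8 and 194.5 CPM in No MM 1 to 5. In MM 6 to 10 it had 160.5, 173.3, 211.9, 157.6 and 153.8 CPM. The immunoglobulin-rich libraries No MM 3 and No MM 4 were the lowest of the 10, while the other 3 No MM libraries lay within the MM range. MM over No MM, the log2 fold change was 0.34 (SE 0.282), with a 95% interval of 0.822- to 1.94-fold (edgeR adjusted p = 0.593, and p = 0.278 in the exact permutation test). It was -0.05 without No MM 3 and No MM 4 (SE 0.158, edgeR adjusted p = 0.905).

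Ifngr2 (chr16:91547072-91565169, plus strand), the second receptor chain, had 64.1, 88.4, 93.3, 87.1 and 126.1 CPM in No MM and 101.8, 96.1, 104.5, 72.4 and 77.7 CPM in MM. The No MM group held both the lowest value (No MM 1) and the highest (No MM 5), and the libraries rich in immunoglobulin lay in the middle. Ifngr2 thus lacked the low values that Ifngr1 had in those libraries. Its log2 fold change was -0.02 (SE 0.191), with a 95% interval of 0.737- to 1.32-fold (edgeR adjusted p = 0.971, exact permutation p = 0.984), and it was -0.05 without No MM 3 and No MM 4 (SE 0.224, edgeR adjusted p = 0.939).

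Jak1 (chr4:101152367-101265282, minus strand), the kinase attached to Ifngr1, had 342.2, 270.3, 91.6, 90.5 and 230.0 CPM in No MM and 271.3, 264.6, 273.4, 239.1 and 252.6 CPM in MM. The MM libraries lay close together (SD 14.3 CPM), whereas the No MM libraries were spread widely (SD 111.4 CPM), with No MM 3 and No MM 4 at the bottom and No MM 1 at the top. The log2 fold change was 0.34 (SE 0.355), with a 95% interval of 0.739- to 2.18-fold (edgeR adjusted p = 0.668, exact permutation p = 0.317). It was -0.13 without No MM 3 and No MM 4 (SE 0.179, edgeR adjusted p = 0.788). Jak1 overlaps Gm12785 on the same strand in GENCODE M21, so their shared reads cannot be told apart. It also overlaps Raver2 on the opposite strand, and whether the counting used strand is not given in the sources used here.

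Jak2 (chr19:29251828-29313080, plus strand), the kinase attached to Ifngr2, had 59.5, 109.2, 102.8, 99.3 and 106.0 CPM in No MM and 85.8, 112.0, 114.2, 132.9 and 134.6 CPM in MM. Of the MM libraries, 4 lay above every No MM library, and MM 6 lay below all No MM libraries but No MM 1. MM over No MM, the log2 fold change was 0.28 (SE 0.196), with a 95% interval of 0.901- to 1.64-fold (edgeR adjusted p = 0.515, exact permutation p = 0.175). Jak2 had the lowest exact p of the 9, and without No MM 3 and No MM 4 its log2 fold change was 0.32 (SE 0.231, edgeR adjusted p = 0.659).

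Irf1 (chr11:53770014-53778374, plus strand), the transcription factor whose window holds the GAS shown above, had 89.2, 82.1, 97.5, 142.3 and 91.9 CPM in No MM 1 to 5. In MM 6 to 10 it had 86.8, 176.3, 120.1, 81.0 and 74.9 CPM. The highest value was in MM 7 and the next in No MM 4, while the lowest pair, MM 10 and MM 9, was also from MM. The means were 100.6 ± 24.0 CPM in No MM and 107.8 ± 42.1 CPM in MM (SD, n = 5 each). The log2 fold change was 0.10 (SE 0.258), with a 95% interval of 0.723- to 1.59-fold (edgeR adjusted p = 0.882, exact permutation p = 0.857). It was -0.15 without MM 7 (edgeR adjusted p = 0.823) and 0.28 without No MM 3 and No MM 4 (edgeR adjusted p = 0.727). Irf1 overlaps Gm17334 on the opposite strand.

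Irf2 (chr8:46739745-46847458, plus strand), which binds the same kind of site as Irf1, had 47.2, 47.8, 36.2, 41.6 and 40.0 CPM in No MM and 39.8, 55.4, 66.2, 41.8 and 44.2 CPM in MM. MM 8 and MM 7 were the highest, and the other 3 MM libraries lay within the No MM range. MM over No MM, the log2 fold change was 0.22 (SE 0.171), with a 95% interval of 0.895- to 1.51-fold (edgeR adjusted p = 0.569, exact permutation p = 0.262), and it was 0.11 without No MM 3 and No MM 4 (SE 0.191, edgeR adjusted p = 0.830). Antisense genes overlap Irf2 in GENCODE M21.

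Usf1 (chr1:171411313-171420352, plus strand), an E-box-binding factor present in most cells, had 60.1, 61.2, 83.7, 113.0 and 57.0 CPM in No MM and 54.6, 71.3, 89.1, 61.7 and 58.8 CPM in MM. No MM 4 was the highest and MM 6 the lowest, and the other 8 libraries lay between 57.0 and 89.1 CPM, with the groups mixed. The log2 fold change was -0.16 (SE 0.222), with a 95% interval of 0.638- to 1.26-fold (edgeR adjusted p = 0.761, exact permutation p = 0.579), and it was 0.15 without No MM 3 and No MM 4 (edgeR adjusted p = 0.746). The table's Usf1 model extends past the GENCODE M21 end at 171419142 and overlaps Tstd1 on the same strand, so reads of Tstd1 may be included.

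Socs1 (chr16:10783808-10785536, minus strand), the feedback inhibitor whose window holds the ISRE matches shown above, had 8.87, 5.18, 41.1, 8.75 and 9.48 CPM in No MM 1 to 5. In MM 6 to 10 it had 8.43, 10.7, 6.73, 5.46 and 5.15 CPM. No MM 3 exceeded every other library by a wide margin, at 1273 counts, and the other immunoglobulin-rich library, No MM 4, did not share the high value. The remaining 4 No MM libraries and the 5 MM libraries covered nearly the same range. MM over No MM, the log2 fold change was -1.01 (SE 0.530), with a 95% interval of 0.221- to 1.11-fold (edgeR adjusted p = 0.405, exact permutation p = 0.294). Without No MM 3 it was -0.15 (edgeR adjusted p = 0.898), and without No MM 3 and No MM 4 it was -0.13 (SE 0.316, edgeR adjusted p = 0.888).

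Ciita, the target gene, is given for comparison, and since the study singled it out on these libraries its values are no independent evidence. It had 14.6, 20.6, 9.76, 9.25 and 19.2 CPM in No MM and 31.5, 38.6, 35.5, 27.2 and 22.2 CPM in MM. Every MM library was above every No MM library, which held for none of the 9 upstream genes. The log2 fold change was 1.08 (SE 0.266), with a 95% interval of 1.41- to 3.16-fold and an edgeR adjusted p of 0.315, while DESeq2 gave an adjusted p of 0.0335. It was 0.75 without No MM 3 and No MM 4 (SE 0.213, edgeR adjusted p = 0.643). Summed dendritic cell markers (9 genes, none at 0), a cell type that makes Ciita, were 51.3 to 127.3 CPM in No MM and 99.9 to 208.8 CPM in MM. Summed B cell markers (10 genes, none at 0) were 190.5 to 447.5 CPM in No MM and 246.2 to 565.7 CPM in MM. The part of these cells in the Ciita value was not tested.

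**Figure D2:**
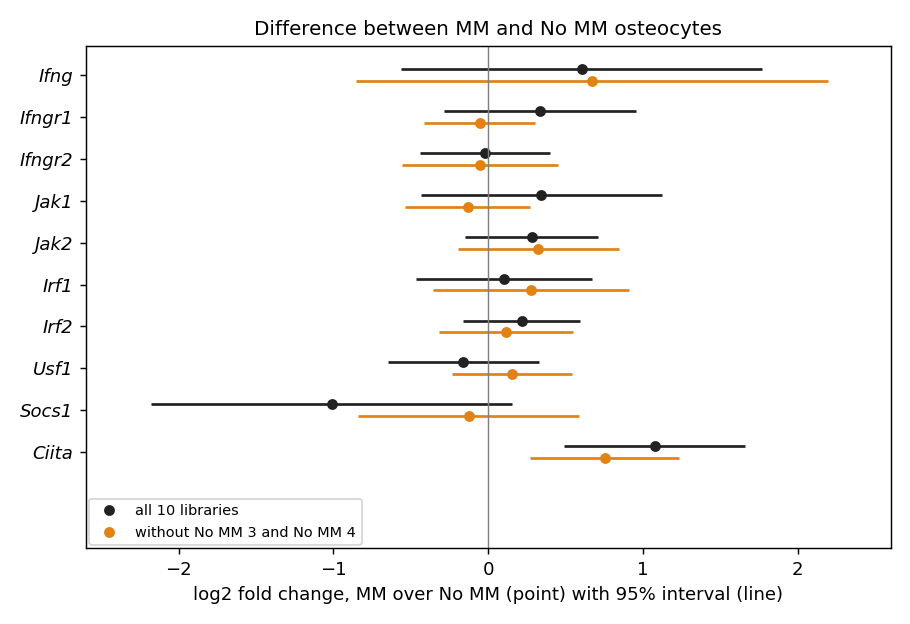
Points are edgeR log2 fold changes of MM over No MM and lines their 95% intervals, in black for all 10 libraries and in orange without No MM 3 and No MM 4. The intervals of the 9 pathway genes include 0 in either fit, Socs1 moves from -1.01 to -0.13, and the interval of Ciita lies above 0.

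Per gene length, Ifngr1 was the most abundant of the 9 genes at 72.7 ± 21.1 RPKM (SD over 10 libraries), above the level of 94.5% of tested genes. Irf1 followed at 48.8 ± 15.2 RPKM and Jak1 at 47.4 ± 16.4 RPKM, and these neighbours were not ordered beyond their spread, since Irf1 was above Jak1 in 4 of 10 libraries. Usf1 had 32.8 ± 8.66 RPKM, Ifngr2 28.0 ± 5.45 RPKM, Jak2 20.998 ± 4.33 RPKM and Irf2 18.5 ± 3.59 RPKM. Jak1 and Usf1, Usf1 and Ifngr2, and Jak2 and Irf2 lay within 1 SD of each other, although the higher of each pair exceeded the other in 8, 8 and 7 libraries. Ifngr2 exceeded Jak2 in 8 libraries, by more than either SD on average. Irf2 exceeded Socs1 (9.01 ± 8.83 RPKM) in 9 libraries. Socs1 exceeded Ifng in all 10, and Ifng, at 0.362 ± 0.279 RPKM, was above only 7.50% of tested genes. The receptor and kinases were therefore well covered by reads in every library, while the ligand rested on 6 to 50 reads.

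Ratios within a library do not depend on its scaling, and 4 were compared by exact permutation tests, two-sided, with adjustment over the 4. The ratio of Jak1 to Jak2 per length was 5.90, 2.54, 0.913, 0.934 and 2.22 in No MM 1 to 5 and 3.24, 2.42, 2.46, 1.85 and 1.92 in MM 6 to 10. Only in the immunoglobulin-rich libraries, among these 10, was Jak2 above Jak1. The groups differed by 0.25 on the log2 scale (exact p = 0.659, adjusted p = 0.659), and by -0.47 without No MM 3 and No MM 4 (exact p = 0.250). The ratio of Ifngr1 to Ifngr2 was 4.05, 2.85, 1.33, 1.27 and 2.38 in No MM and 2.43, 2.78, 3.12, 3.35 and 3.05 in MM. Again the lowest values were those of No MM 3 and No MM 4, and the log2 difference of 0.44 (exact p = 0.270, adjusted p = 0.540) was -0.04 without them (exact p = 0.839).

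The ratio of Irf1 to Irf2, which bind the same kind of site, was 2.19, 1.99, 3.13, 3.98 and 2.67 in No MM and 2.53, 3.70, 2.11, 2.25 and 1.97 in MM. It was highest in No MM 4, MM 7 and No MM 3, and the log2 difference was -0.15 (exact p = 0.540, adjusted p = 0.659), or 0.11 without No MM 3 and No MM 4 (exact p = 0.732). The ratio of Socs1 to Irf1, inhibitor to factor, was 0.174, 0.111, 0.739, 0.108 and 0.181 in No MM and 0.170, 0.106, 0.0982, 0.118 and 0.120 in MM. No MM 3 stood alone, and the log2 difference was -0.69 (exact p = 0.214, adjusted p = 0.540), or -0.33 without No MM 3 and No MM 4 (exact p = 0.286).

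**Figure D3:**
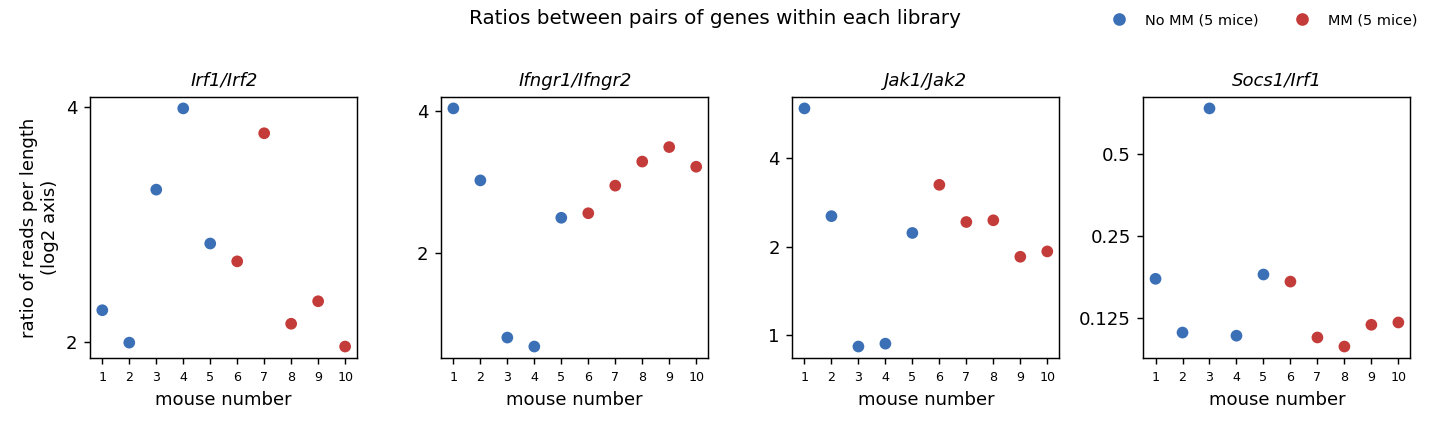
Each panel plots a ratio of reads per length between a pair of genes in 1 library per mouse, on a log2 axis, with No MM mice 1 to 5 in blue and MM mice 6 to 10 in red. Jak1/Jak2 and Ifngr1/Ifngr2 are lowest in No MM 3 and No MM 4, and Socs1/Irf1 is highest in No MM 3, at 0.739.

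The genes also differed in how they followed the libraries. Jak1, Ifngr1 and Ciita were lower in both No MM 3 and No MM 4 than in any of the other 8 libraries, which made 2 of the 9 upstream genes. This pattern was common, since 20.7% of all tested genes showed it. None of the 9 was higher in both of these libraries than in all others, which held for 3890 of the 16186 tested genes.

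Within the MM group, Irf1 ranked the libraries as Ciita did, from MM 7 through MM 8, MM 6 and MM 9 to MM 10. Irf1 was the only 1 of the 9 with this order, which 0.958% of the other 16185 tested genes had. The order of 5 libraries is a description and carries no test. In the No MM group the orders differed. Irf1 was highest in No MM 4 (142.3 CPM) and No MM 3 (97.5 CPM), the libraries in which Ciita was lowest, though No MM 3 was close to No MM 5 (91.9 CPM). The Irf1 level in MM 6, MM 9 and MM 10 (74.9 to 86.8 CPM) was near or below the No MM levels (82.1 to 142.3 CPM), while Ciita in the same libraries (22.2 to 31.5 CPM) was above every No MM library.

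**Figure D4:**
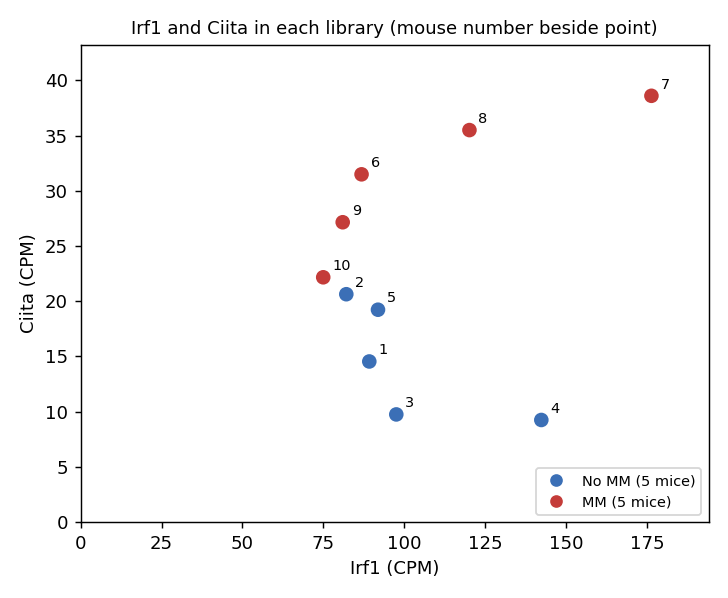
Each point is 1 library, with Irf1 on the x axis and Ciita on the y axis, both in CPM on linear axes from 0, and the mouse number beside it (No MM blue, MM red). The MM points ascend together from MM 10 to MM 7, whereas No MM 4 combines high Irf1 with the lowest Ciita. No MM 3 has the next lowest Ciita, with Irf1 close to that of No MM 5.

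Genes that interferon gamma is known to induce were read in the same way (33 listed, 32 in the table, 31 tested, among them Ciita). Between the groups, 14 were higher and 17 lower in MM, with a median log2 fold change of -0.09 beside -0.03 over all tested genes. By edgeR, 0 of the 31 passed the adjusted threshold. At an unadjusted p under 0.05, 2 were higher (Ciita and the guanylate-binding protein Gbp8), and 3 were lower, namely Tapbp and Psmb8, of antigen processing, and the nitric oxide synthase Nos2. The shares over all tested genes were 3.81% higher and 10.3% lower. DESeq2 called 1, Ciita, beside 1.27% of the 14868 genes to which it gave an adjusted p. These counts depended on single libraries. Without No MM 3 and No MM 4, 7 of 32 were higher at an unadjusted p under 0.05 (Gbp4, Gbp8, Gbp9, Gbp11, the checkpoint ligand Cd274, the MHC class I regulator Nlrc5 and Ciita) and 0 were lower, beside 2.51% and 3.37% of all genes, with no edgeR adjusted p below 0.643. Gbp11 was tested neither with all 10 libraries nor without No MM 3, No MM 4 and MM 7. Its place among the 7 therefore rests on a filter on low counts that it did not pass in those fits. Without MM 7, 1 of 31 was higher and 6 were lower, where 2.57% of all genes were higher and 7.34% lower. Without all 3 of these libraries, 2 of 30 were higher and 1 was lower, where 1.89% of all genes were higher and 1.73% lower.

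The library MM 7, which had the most Ifng and Irf1, was the highest of the 5 MM libraries for 29 of the 31 inducible genes (93.5%), whereas it was the highest for 9.50% of all tested genes. The exceptions were Nos2, highest in MM 6, and Cd274, highest in MM 8. The inducible genes lay in MM 7 at a median of 1.32 log2 units above the median of the other 4 MM libraries, and all tested genes at -0.00. Cxcl9, a chemokine named for its induction by interferon gamma, had 167.2 CPM in MM 7 and 14.4 to 28.4 CPM in the other MM libraries. The GTPase genes Igtp (189.3 CPM against 41.9 to 84.5 CPM) and Gbp2 (145.7 CPM against 19.9 to 59.5 CPM) followed it. These 3 genes were chosen after their values were seen. The pattern was strongest in 1 mouse and is no difference between the conditions. MM 8 came next, with the inducible genes at a median of 0.47 log2 units above the other 4 MM libraries. That median was -0.08 in MM 6, -0.60 in MM 9 and -0.82 in MM 10.

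In the No MM group, the inducible genes were highest in No MM 3 (13 of 31, or 41.9%, against 14.2% of all tested genes) and No MM 4 (11 of 31, or 35.5%, against 25.7%). Their medians were 0.87 and 0.76 log2 units above the median of the other 4 No MM libraries. These are the libraries in which Socs1 (No MM 3) and Irf1 (No MM 4) were highest among the No MM mice, while Ifng there, at 12 and 10 counts, was within the range of that group. No MM 1 held 6 of the 31 (19.4%, against 27.1% of all tested genes). Among the No MM mice, the inducible genes thus stood high at the median in No MM 3 and No MM 4, whereas Ifngr1, Jak1 and Ciita stood low. Irf1 stood high only in No MM 4 (142.3 CPM), since No MM 3 (97.5 CPM) was close to No MM 5 (91.9 CPM).

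**Figure D5:**
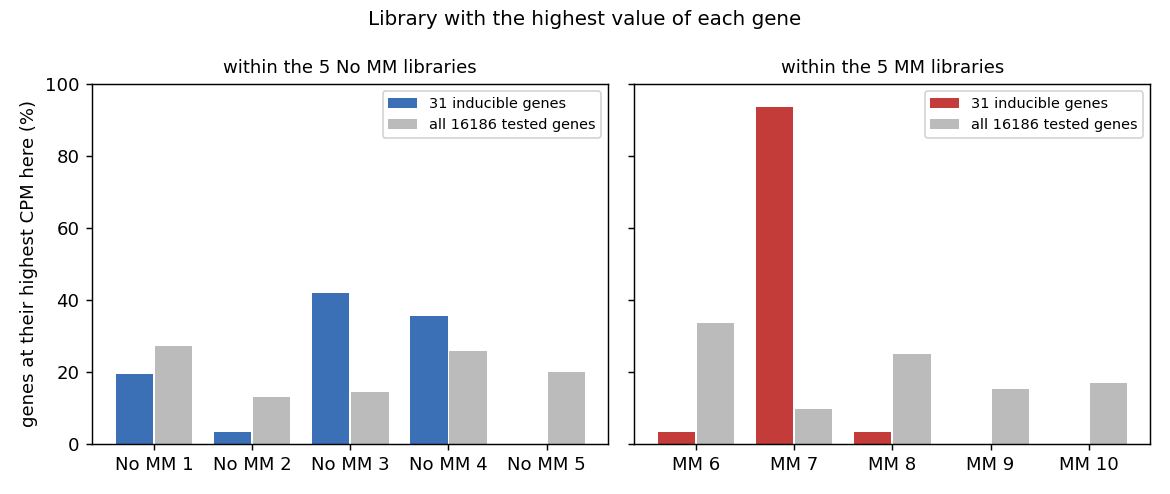
Bars give the percentage of genes with their highest CPM in each library, among the 5 No MM libraries (left, blue) and the 5 MM libraries (right, red), for the 31 inducible genes, with all 16186 tested genes in grey; the axis runs from 0 to 100%. MM 7 holds 93.5% of the inducible genes, and No MM 3 and No MM 4 hold 41.9% and 35.5%.

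The other genes of the pathway were counted in fixed lists. Of 14 genes of signal transduction and feedback, 11 were higher and 3 lower, where 47.3% of all tested genes were higher. Only 1 of the 14 passed an unadjusted p of 0.05. It was Prkcd, a protein kinase C isoform, with 98.8 to 148.8 CPM in No MM and 119.5 to 221.3 CPM in MM (log2 fold change 0.50, SE 0.186, edgeR adjusted p = 0.315). The adaptor and ubiquitin ligase Cbl (0.45, SE 0.210, edgeR adjusted p = 0.362) and Stat2 (0.40, SE 0.225, edgeR adjusted p = 0.430) came next by p. The share that passed in the higher direction was 3.81% over all tested genes. The median of the list was 0.24, beside -0.03 over all tested genes. Without No MM 3 and No MM 4, 0 of the 14 passed, where 2.51% of all genes were higher and 3.37% lower. The median of the list was then 0.09, and Prkcd was at 0.36 (SE 0.198, edgeR adjusted p = 0.643).

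Of 11 tested genes that drive Ifng expression in T and NK cells, 10 were higher in MM and 1 lower, with a median of 0.73, where 47.3% of all tested genes were higher and the median was -0.03. The cytokine Il15, which maintains NK cells, had 5.87, 11.4, 7.50, 7.26 and 10.5 CPM in No MM and 12.9, 13.6, 10.9, 12.0 and 11.5 CPM in MM, with groups that overlapped only between No MM 2 and MM 8. Its log2 fold change was 0.52 (SE 0.224, edgeR adjusted p = 0.340). The receptor genes Il18r1 (1.08, SE 0.479, edgeR adjusted p = 0.348) and Il12rb2 (1.16, SE 0.572, edgeR adjusted p = 0.387) followed, and Il15 and Il18r1 were the 2 with an unadjusted p under 0.05 (3.81% of all tested genes in that direction). In the fit without No MM 3 and No MM 4, neither passed, with Il15 at 0.38 (SE 0.234) and Il18r1 at 0.64 (SE 0.454). The median of the list was then 0.42, and 1 of the 12 genes tested passed in the higher direction, beside 2.51% of all genes. It was the receptor gene Il15ra (0.72, SE 0.282, edgeR adjusted p = 0.643), which was named after its values were seen. Without MM 7, 0 of 11 passed, where 2.57% of all genes were higher and 7.34% lower. The T and NK cell markers themselves were higher in MM for 14 of 16 genes, where 47.3% of all tested genes were higher. By edgeR's adjusted p 0 passed, and 2 were higher at an unadjusted p under 0.05 (3.81% of all tested genes). These were Klrd1 (log2 fold change 1.39, edgeR adjusted p = 0.315) and Ncr1 (1.40, edgeR adjusted p = 0.315), receptors of NK cells. Of the 16 markers, 8 were lower in both No MM 3 and No MM 4 than in the other 8 libraries, beside 20.7% of all tested genes. The same held for 5 of the 11 genes that drive Ifng expression. The median of the marker list was 0.32 with No MM 3 and No MM 4 and 0.09 without them.

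Of 17 relatives of the 9 genes (other Jak, Irf, Usf and Socs genes and interferon receptor chains), 9 were higher and 8 lower, with a median of 0.01. At an unadjusted p under 0.05, 0 were higher and 2 lower (3.81% and 10.3% of all tested genes). DESeq2 called 2 lower, beside 155 of the 14868 genes to which it gave an adjusted p. Those at the unadjusted threshold included Irf4, a factor of plasma cells (log2 fold change -3.68, edgeR adjusted p = 0.315). Irf4 had 1007 and 760.5 CPM in No MM 3 and No MM 4 and 16.9 to 40.7 CPM in the other 8. Without those libraries its log2 fold change was 0.08. The kinase Tyk2, which serves the type I interferon receptor, was at -0.67 (SE 0.400, edgeR adjusted p = 0.459). It had 179.3 and 197.7 CPM in No MM 3 and No MM 4 and 53.4 to 85.2 CPM in the other 8, and without those libraries its direction turned, to 0.29 (SE 0.147, edgeR adjusted p = 0.643).

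Of 10 class II genes, Ciita included, 9 were higher and 1 lower, with a median of 0.42, where 47.3% of all tested genes were higher. Ciita alone passed an unadjusted p of 0.05 (3.81% of all tested genes were higher at it). The lower one was Cd74, the invariant chain and the most abundant gene of the set named here, with 674.7 to 4623 CPM in No MM and 589.3 to 1873 CPM in MM (log2 fold change -1.06, SE 0.506, edgeR adjusted p = 0.371). Its highest values, 4623 and 3177 CPM, were in No MM 3 and No MM 4, and without them it was at -0.23 (SE 0.422, edgeR adjusted p = 0.848). H2-Ob was at 0.60 (SE 0.315, edgeR adjusted p = 0.406), and at 0.84 without those libraries (SE 0.367, edgeR adjusted p = 0.643). The median of the list was then -0.00, and 2 of the 10 passed an unadjusted p of 0.05, Ciita and H2-Ob. Of all genes in that fit, 2.51% were higher at this threshold.

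The genes most like a pathway gene were found by Pearson's r of log2 CPM over the 10 libraries, as a description. The libraries share cell makeup and scaling, which such values include. Most like Irf1 were Gm4841 (r = 0.96), Dtx3l (r = 0.95) and Parp9 (r = 0.94), and over the 8 libraries without No MM 3 and No MM 4 the values were 0.95, 0.95 and 0.98. Most like Socs1 were Cd40 (0.88), Gbp3 (0.85) and Pdia3 (0.85), and over the 8 libraries they were 0.80, 0.63 and 0.69. Most like Ifngr1 were Mfsd1, Ccl9 and Arpc1b (each 0.98), at 0.90, 0.96 and 0.90 over the 8. Most like Jak2 were Ska2 (0.99), Fli1 (0.98) and Pdik1l (0.97), at 0.99 each over the 8.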

How the data were processed

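Osteocyte RNA-seq libraries of 5 No MM mice and 5 MM mice were used, grouped by their labels. The submitters' processing notes name FastQC 0.11.5 and STAR, without their roles. The counting program, annotation and build are not given in the sources used here. The authors deposited read counts per gene, which were used. The authors also deposited a signal, in which a size factor scales the counts. Deposited FPKM values, and the authors' deposited log2 fold changes and p-values from their own comparison, were likewise not used. Gene length from the table gave RPKM.

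Counts were analyzed in R 4.3.3 with edgeR 4.0.16 (filterByExpr, TMM, glmQLFit, glmQLFTest, no covariates), limma 3.58.1 being loaded with it. Benjamini-Hochberg adjustment covered 16186 genes, and adjusted p-values under 0.05 were called. Log2 CPM used a prior count of 2. Exact permutation tests enumerated every assignment of the 10 mice to groups of 5, two-sided, with a smallest p of 0.00794. Between 31099174 and 39466332 reads were counted per library. The limit of 3 counts covers counting error only. Coordinates are GRCm38, since 22284 of 22548 identifiers were found in GENCODE M21, 68.4% of them at the same position. Scripts were tested on simulated data.

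The members and lists were chosen with earlier results of these data known. Named genes were the 9 members, Ciita, the 3 genes of each list used with the smallest p, and the 3 genes most correlated with Irf1, Socs1, Ifngr1 and Jak2. Exceptions are stated, and some genes that the rule names are not reported here. Alternatives were DESeq2 1.42.0, RLE and upper-quartile scaling, no filter, at least 10 counts in every library, immunoglobulin genes left out, a prior count of 0.5, No MM 3 and No MM 4 left out, each mouse left out, and an unadjusted threshold. Counts of lists without No MM 3, No MM 4 and MM 7 were added after seeing the data.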

Additional observations from a re-analysis of the deposited data

Results flagged for a closer look

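Single libraries that lay far from the other 4 of their group, by Dixon's test at its 95% critical value of 0.71, were found in 10 of 62 sets of values, where chance gives about 1 in 20, or 3.1. Ifng had 1.35 CPM in MM 7, against 0.182 to 0.520 CPM in the other MM libraries. Jak2 had 59.5 CPM in No MM 1, against 99.3 to 109.2 CPM. Irf1 had 142.3 CPM in No MM 4, against 82.1 to 97.5 CPM. Socs1 had 41.1 CPM in No MM 3, against 5.18 to 9.48 CPM, and the Socs1/Irf1 ratio was 0.739 there, against 0.108 to 0.181. In MM 7, Stat2 had 104.5 CPM (others 53.7 to 65.5), Igtp 189.3 CPM (others 41.9 to 84.5) and Cxcl9 167.2 CPM (others 14.4 to 28.4). Il12rb2, a receptor chain for interleukin 12, had 11.4 CPM in MM 8, against 1.69 to 4.11 CPM. Nos2 had 2.30 CPM in MM 6, against 1.09 to 1.37 CPM.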

How the results depend on the processing

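None of the 9 genes was called under any of the 18 alternatives. DESeq2 called 34 genes higher and 155 lower, and an unadjusted p under 0.05 gave 617 and 1664, where edgeR's adjusted p gave 0 and 0. DESeq2 also called Ciita (1.09, adjusted p = 0.0335). Without No MM 3 and No MM 4, the log2 fold changes of Ifngr1 (-0.0544), Jak1 (-0.13) and Usf1 (0.15) changed sign, as did the differences of mean log2 CPM (-0.0598, -0.11 and 0.13) and the ratios Irf1/Irf2 (0.11), Ifngr1/Ifngr2 (-0.0421) and Jak1/Jak2 (-0.47). With each mouse left out in turn, log2 fold changes ran from -0.0938 to 0.82 for Ifng, -0.13 to 0.12 for Ifngr2, -0.15 to 0.26 for Irf1 and -0.28 to 0.0331 for Usf1. The differences of mean log2 CPM ran from -0.13 to 0.51, -0.12 to 0.12, -0.14 to 0.18 and -0.24 to 0.0278 for the same genes, and Jak1/Jak2 from -0.0201 to 0.65. Socs1 ran from -1.24 to -0.15 and Ciita from 0.95 to 1.22. Ifng fell below 10 counts in 2 libraries, so it has no value under that filter, and DESeq2 gave it no adjusted p. RLE, upper-quartile scaling and removal of immunoglobulin genes turned no direction among the 9. The causes of these shifts were not tested beyond the libraries left out. No paired analysis was made, because mouse numbers run from 1 to 10 across the groups and the labels give no pairs. The study calls its own differential analysis paired, and whether mice were matched cannot be read from the labels.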
